A study of Homo sapiens with 24 samples.

Results

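The effect of lowering ADAR1 was measured in HCC1806, a human breast cancer cell line that the series groups with triple-negative tumours, those lacking oestrogen and progesterone receptors and HER2 amplification. All libraries whose titles name HCC1806 were taken, which gave 6 of 24 RNA-seq libraries: 3 with a short hairpin RNA against ADAR1 (shADAR1) and 3 with a non-targeting hairpin (shNT). The other 18 libraries came from BT549, MDAMB231 and MDAMB468 under the same design and served for the spread between replicates and for tests of difference between lines. Cells of both arms had been infected with lentivirus for 24 h and kept in puromycin at 2 µg/ml for 72 h, so the controls carried a hairpin and the drug as well. RNA (1 µg, DNase-treated) went into a kit that depletes ribosomal RNA. Hairpin sequences, and whether more than 1 hairpin was used, are not stated in the labels, so effects of ADAR1 loss and of a particular hairpin cannot be told apart here. Replicates are numbered 1 to 3 in both arms and are called biological replicates in the titles, with no word on separate cultures or infections. P-values therefore measure a spread among these libraries only. In the fit that pairs libraries by replicate number, it is the spread of the change between numbers, estimated over all 24 libraries. In the fit without pairing, it is the spread between libraries of an arm.

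ADAR1, the product of ADAR, converts adenosine to inosine in double-stranded RNA. Editing marks the cell's own duplexes as self, so that the sensor MDA5 does not start an interferon response, and ADAR1 also restrains the kinase PKR, which on binding duplex RNA phosphorylates eIF2α and thereby starts the integrated stress response. MDM2, named in the title of the series, is the ubiquitin ligase that holds p53 down, and ferroptosis, also named there, is an iron-dependent death through lipid peroxidation.

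Total counts of the 6 libraries ran from 24199130 (shNT replicate 1) to 89073980 (shADAR1 replicate 3). The epithelial and basal markers ranged widely in level. EPCAM lay between 281 and 317 CPM (counts scaled to library size by TMM) in the 6 libraries. KRT5 lay between 1065 and 1356 CPM and TP63 between 152 and 213 CPM. Lower readings were those of KRT14 (20.8 to 213 CPM), KRT16 (15.6 to 26.4 CPM) and DSG3 (8.25 to 19.0 CPM). Of the receptors whose absence defines the triple-negative group, PGR was at most 0.284 CPM, whereas ESR1 was read at 18 to 26.8 CPM and ERBB2 at 82.0 to 118 CPM. Of the markers of fibroblasts, endothelium and blood cells, DCN, LUM, PDGFRB, PECAM1, VWF and PTPRC were at most 0.589 CPM and CD14 was at 0.852 to 1.545 CPM. None of the 14 such markers tested was called. The summed level of those 14 was 50.6 to 62.1 CPM in shADAR1 and 52.5 to 64.4 CPM in shNT, most of it CD68.

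The libraries lay in pairs. On the first principal component of log2 CPM (49.0% of the variance) both replicate 3 libraries stood apart from replicates 1 and 2, and on the second (27.6%) both replicate 1 libraries stood apart from both replicate 2 libraries, with the 2 arms of a number side by side. Deviations from the arm means correlated at 0.642, 0.731 and 0.810 across genes between libraries of the same number. Values between different numbers were below 0, which centring on arm means brings about on balance once same-number values are positive. The comparison was defined as paired by replicate number, so changes were tested within pairs, and the result without pairing is given beside them.

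**Figure D1:**
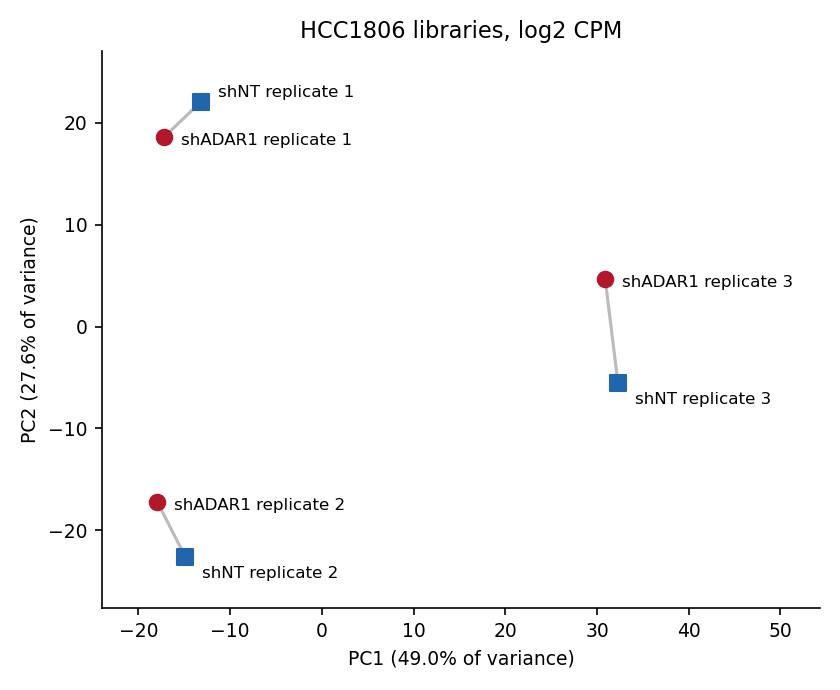
The 6 HCC1806 libraries on the first and second principal components of log2 CPM (axes in component units, percent of variance in the labels). Circles are shADAR1, squares shNT, and a line joins the libraries of a replicate number; the libraries lie by replicate number rather than by arm.

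ADAR, the gene the hairpin targets (ENSG00000160710, chromosome 1, 154582062 to 154627999, minus strand), stood at 86.5, 128 and 137 CPM in shADAR1 and 370.4, 334 and 358 CPM in shNT, values that are here and below in the order of replicates 1, 2 and 3. Every shADAR1 library lay below every shNT library, and replicate 1 had the lowest level. The fitted level was 32.6% of control (log2 fold change -1.62, SE 0.107, edgeR adjusted p 2.44e-08; edgeR's quasi-likelihood test on all 21352 genes tested, Benjamini-Hochberg adjustment). A bulk measurement cannot tell fewer expressing cells from less RNA per cell. ADAR was also called without pairing, and its fall in HCC1806 did not pass the test of difference from the mean fall of the other 3 lines (difference 0.25, SE 0.122, edgeR adjusted p 0.388).

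MDM2 (ENSG00000135679, chromosome 12, 68808172 to 68850686, plus strand) stood at 99.1, 87.5 and 96.5 CPM in shADAR1 and 76.8, 66.8 and 74.6 CPM in shNT. The rise was of like size in each pair, with log2 ratios of 0.37, 0.39 and 0.37, and the arms did not overlap. It passed within pairs (log2 fold change 0.38, SE 0.0848, edgeR adjusted p 0.0199) and did not pass without pairing (edgeR adjusted p 0.684), nor within pairs once any replicate was left out (edgeR adjusted p 0.18 without replicate 1, 0.115 without replicate 2 and 0.119 without replicate 3). MDM2 rose less in HCC1806 than on average in the other lines, where the log2 fold change was 0.94 in BT549, 0.93 in MDAMB231 and 0.55 in MDAMB468. The difference from their mean was -0.43 (SE 0.0982, edgeR adjusted p 0.0263). The difference from each single line was not tested.

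Within pairs 448 of 21352 genes were called at an adjusted p under 0.05, which is 2.1% of the genes tested. Of these, 313 were higher in shADAR1 (1.47%) and 135 lower (0.632%). Without pairing 10 genes were called (0.0468%): ADAR, DHRS2, RGMA, ASNS, ENSG00000248596, MLX, SNHG32, DNAH3, ISOC1 and NUDT8 (the last named after its values were seen). All other genes named below as changed had an edgeR adjusted p of at least 0.0652 without pairing. At an unadjusted p under 0.05 there were 2764 genes within pairs and 929 without. All 448 moved the same way in each of the 3 pairs, but in 256 of them the arms overlapped, because the level of a gene often differed more between replicate numbers than between arms. Over all genes, arms were apart in 1619 (7.58%), against 192 of the 448 called. The count rested on all 3 pairs: leaving out replicate 1, 2 or 3 gave 74, 238 and 110 genes. DESeq2 called 726 genes in the same design, 429 higher and 297 lower, and a fit to the 6 HCC1806 libraries alone, with pairing, called 1150, 639 higher and 511 lower.

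The rises were larger than the falls. Among genes at 5 CPM or more in the higher arm, 11 called genes rose 2-fold or more and ADAR was the only called gene that fell as far. The median called rise was 0.42 and the median called fall -0.32 on the log2 scale. Most called genes (437) are protein-coding, 7 are lincRNAs, and 16 had under 1 CPM in both arms.

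**Figure D2:**
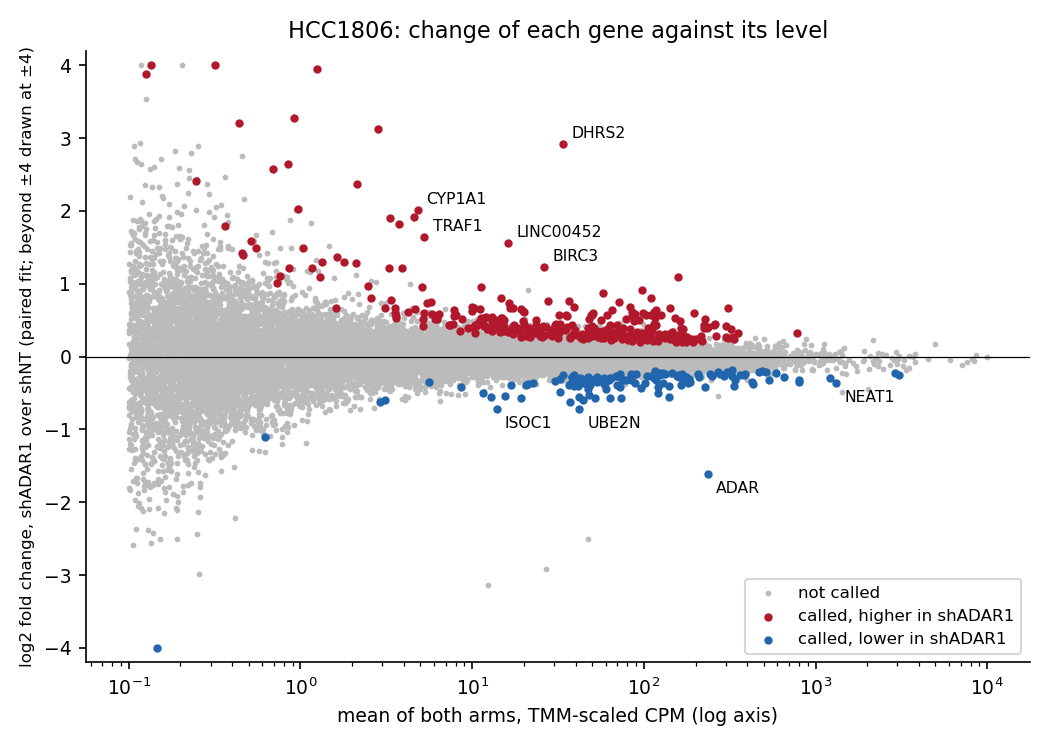
Log2 fold change of shADAR1 over shNT in HCC1806 (vertical axis, paired fit) against the mean level of both arms in TMM-scaled CPM (horizontal log axis), 1 point per gene at 0.1 CPM or more. Coloured points are called; rises reach far higher than falls, with DHRS2 the largest rise at a mean above 10 CPM and ADAR the largest called fall at a mean above 1 CPM.

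The largest changes are given for genes at 5 CPM or more in the higher arm. Among those with a symbol, the largest rise was that of DHRS2 (ENSG00000100867, chromosome 14, 23630115 to 23645639, plus strand), a short-chain dehydrogenase. It stood at 87.9, 36.7 and 54.5 CPM in shADAR1 and 10.2, 9.07 and 4.11 CPM in shNT. Each shADAR1 library was above each shNT library, and the fitted change was 7.58-fold (log2 fold change 2.92, SE 0.205, edgeR adjusted p 3.3e-08). Of 27 short-chain dehydrogenases tested, DHRS2 was the only member called (3.7%, beside 2.1% of all genes tested), and the others ran from -0.19 upwards on the log2 scale.

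CYP1A1 (ENSG00000140465, chromosome 15, 74719542 to 74725610, minus strand), a cytochrome P450 that the aryl hydrocarbon receptor induces, stood at 11, 6.69 and 5.32 CPM in shADAR1 and 1.63, 3.25 and 0.927 CPM in shNT, with arms apart (log2 fold change 2.01, SE 0.26, edgeR adjusted p 0.000158). RGMA (ENSG00000182175, chromosome 15, 93035273 to 93089204, minus strand), a membrane-anchored co-receptor for bone morphogenetic proteins, stood at 8.6, 4.42 and 8.97 CPM in shADAR1 and 1.28, 2 and 2.12 CPM in shNT, also with arms apart (log2 fold change 1.91, SE 0.204, edgeR adjusted p 2.23e-05). CYP1B1, another P450 under the same receptor, rose by less and stood at 136, 119 and 103 CPM in shADAR1 and 93.3, 97.9 and 80.7 CPM in shNT (log2 fold change 0.39, SE 0.0623, edgeR adjusted p 0.00126; 0.0663 without replicate 1 by the same test); it was named after its values were seen.

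TRAF1 (ENSG00000056558, chromosome 9, 120902393 to 120929173, minus strand), an adaptor of tumour necrosis factor receptors, stood at 10.6, 9.96 and 3.51 CPM in shADAR1 and 2.24, 4.2 and 1.06 CPM in shNT. Its arms overlapped, since shADAR1 replicate 3 lay below shNT replicate 2, yet each pair rose (log2 fold change 1.64, SE 0.144, edgeR adjusted p 8.74e-07). BIRC3 (ENSG00000023445, chromosome 11, 102317450 to 102339403, plus strand), the ubiquitin ligase cIAP2 that binds TRAF proteins, stood at 55.2, 32.7 and 23.2 CPM in shADAR1 and 18.8, 18.5 and 9.21 CPM in shNT, with arms apart (log2 fold change 1.22, SE 0.158, edgeR adjusted p 0.000158). TNFRSF9, the receptor 4-1BB, had 7.82, 4.87 and 3.1 CPM in shADAR1 and 1.28, 2.31 and 0.676 CPM in shNT (log2 fold change 1.91, SE 0.343, edgeR adjusted p 0.00387), a call lost on leaving out a pair (edgeR adjusted p 0.149 without replicate 1 and 0.074 without replicate 3).

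KLF10 (ENSG00000155090, chromosome 8, 102648779 to 102655902, minus strand), a zinc-finger factor induced early by TGF-beta, had 160.0, 105 and 118 CPM in shADAR1 and 80.1, 68.7 and 53 CPM in shNT with arms apart (log2 fold change 0.92, SE 0.0772, edgeR adjusted p 6.6e-07). CREB5, a factor of the CREB family, had 8.05, 6.81 and 5.42 CPM in shADAR1 and 3.87, 4.2 and 2.45 CPM in shNT (log2 fold change 0.95, SE 0.124, edgeR adjusted p 0.000175).

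Other rises at low or moderate level were those of DNAH3 (an axonemal dynein heavy chain, 1.82, edgeR adjusted p 0.00023) and the long non-coding RNA LINC00452 (1.56, 0.000158). ENSG00000248596, a processed transcript on chromosome 5 (176143085 to 176199295) with no symbol in the name table, had the largest rise of all named genes (log2 fold change 3.12, SE 0.351, edgeR adjusted p 3.29e-05), with 7.02, 2.96 and 5.39 CPM in shADAR1 and 0.66, 0.79 and 0.251 CPM in shNT. ENSG00000277967, annotated as a short RNA of 87 bases on chromosome 20 (49280485 to 49280571), rose by 0.95 (edgeR adjusted p 0.00122). Counting is not stated to use strand, so reads of overlapping or antisense genes may be shared in such loci.

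**Figure D3:**
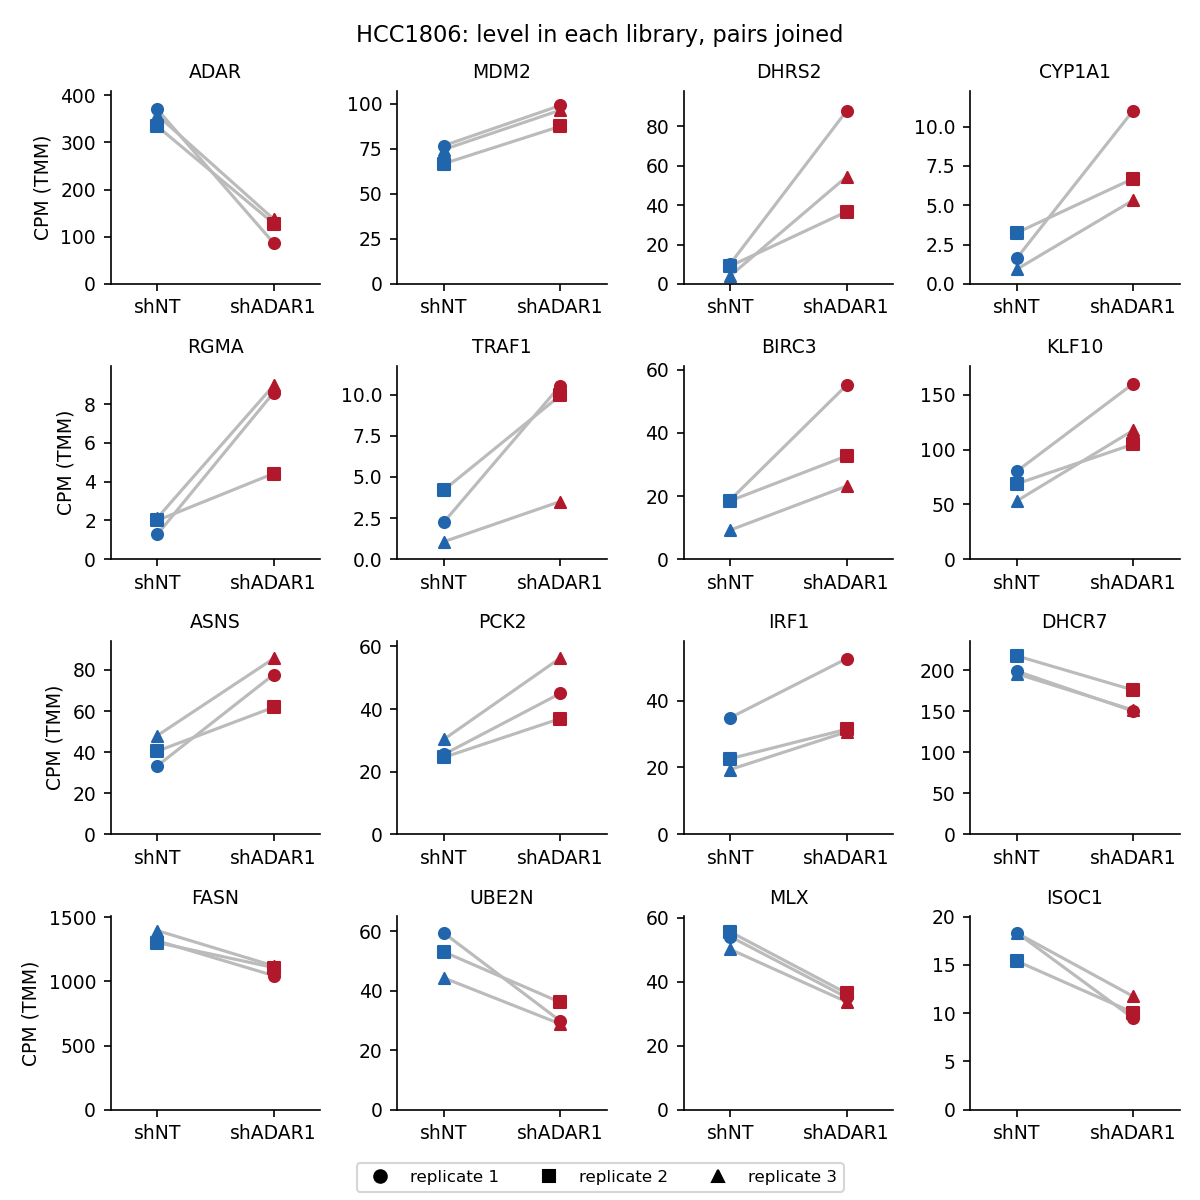
Level of 16 genes in each HCC1806 library, in TMM-scaled CPM on axes that start at 0. Blue is shNT, red shADAR1, the marker shape gives the replicate number and a line joins each pair; all 3 lines slope the same way for every gene, while the starting level differs between replicates for genes such as IRF1 and TRAF1.

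The falls were smaller. UBE2N (ENSG00000177889, chromosome 12, 93405673 to 93442262, minus strand), the ubiquitin-conjugating enzyme Ubc13 that builds lysine-63 chains, had 29.8, 36.1 and 28.8 CPM in shADAR1 and 59.4, 53 and 44.3 CPM in shNT with arms apart (log2 fold change -0.72, SE 0.0952, edgeR adjusted p 0.000196). MLX (ENSG00000108788, chromosome 17, 42567068 to 42573239, plus strand), the partner of the glucose-sensing factors MondoA and ChREBP, had 35.1, 36.4 and 33.7 CPM in shADAR1 and 54.1, 55.6 and 50.1 CPM in shNT with arms apart (log2 fold change -0.60, SE 0.0747, edgeR adjusted p 0.000109). ISOC1 (ENSG00000066583, chromosome 5, 129094751 to 129114028, plus strand), an isochorismatase-domain protein, had 9.48, 10.1 and 11.7 CPM in shADAR1 and 18.3, 15.4 and 18.3 CPM in shNT with arms apart (log2 fold change -0.73, SE 0.105, edgeR adjusted p 0.000499).

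PEG10, a retrotransposon-derived imprinted gene, fell by 0.57 (edgeR adjusted p 0.000158) and HSPG2, the basement membrane proteoglycan perlecan, by 0.56 (0.00049). TAF11, a subunit of TFIID, fell by 0.54 (0.00157). These 3, UBE2N, MLX and ISOC1 kept their calls whichever replicate was left out. NUP210, a nuclear pore protein, had 16.6, 15.4 and 55.5 CPM in shADAR1 and 29.6, 21.9 and 82.5 CPM in shNT. Replicate 3 was the highest of each arm and the arms overlapped, though each pair fell (log2 fold change -0.63, SE 0.104, edgeR adjusted p 0.00172; 0.0668 without replicate 1 by the same test).

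The remaining largest falls each lost the call on leaving out a pair. HAS3, a hyaluronan synthase, fell by 0.57 (edgeR adjusted p 0.00224; 0.101 without replicate 3). RAB11FIP2, an effector of recycling endosomes, fell by 0.57 (0.00224; 0.0783 without replicate 1). AIDA, an axin-binding protein, fell by 0.53 (0.00304; 0.132 without replicate 1). GJA1, the gap junction protein connexin 43, fell by 0.56 (0.00487; 0.107 without replicate 1 and 0.104 without replicate 3). LITAF, an endosomal membrane protein, fell by 0.57 (0.0137; 0.302 without replicate 1, 0.0544 without replicate 2 and 0.0516 without replicate 3). GNB5, a G protein beta subunit, fell by 0.55 (0.0136; 0.168 without replicate 1, 0.0773 without replicate 2 and 0.0971 without replicate 3).

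The integrated stress response list holds 50 genes that ATF4 or its partners induce when eIF2α is phosphorylated or amino acids run short. Of 50 tested, 16 rose (32%, beside 1.47% of all genes tested) and 0 fell. In all, 46 had a log2 fold change above 0, and the median was 0.22 at 1 CPM or more, where that of all genes was 0.01. ASNS (ENSG00000070669, chromosome 7, 97852118 to 97872542, minus strand), asparagine synthetase, had 77.8, 61.8 and 85.6 CPM in shADAR1 and 33.3, 40.5 and 48 CPM in shNT with arms apart (log2 fold change 0.88, SE 0.0954, edgeR adjusted p 2.61e-05). PCK2 (ENSG00000100889, chromosome 14, 24094053 to 24110598, plus strand), the mitochondrial phosphoenolpyruvate carboxykinase, had 45, 36.9 and 56.3 CPM in shADAR1 and 25.5, 24.6 and 30.3 CPM in shNT with arms apart (log2 fold change 0.77, SE 0.0851, edgeR adjusted p 2.88e-05). Both kept their calls whichever pair was left out.

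Genes of serine synthesis rose together within the list: PHGDH (0.31, edgeR adjusted p 0.0098), PSAT1 (0.44, 0.00126) and PSPH (0.28, 0.0432), its 3 successive enzymes, passed, as did the mitochondrial folate enzyme ALDH1L2 (0.44, 0.0115). PSAT1 stood at 152, 109.6 and 146 CPM in shADAR1 and 105, 90.9 and 103 CPM in shNT, with arms apart. The cytosolic tRNA synthetases AARS1, CARS1, GARS1, MARS1 and SARS1 rose, AARS1 by 0.24 (edgeR adjusted p 0.0159). DDIT4, an inhibitor of mTORC1, rose by 0.44 (0.00616), CEBPB, a partner factor of ATF4, by 0.32 (0.014), the glycine transporter gene SLC6A9 by 0.32 (0.0364) and VEGFA by 0.39 (0.00049). JDP2, which codes for a partner of AP-1 and ATF proteins, made up the 16.

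ATF4 itself did not pass, with 373, 433 and 315 CPM in shADAR1 and 339, 415 and 333 CPM in shNT (log2 fold change 0.04, SE 0.0568, edgeR adjusted p 0.869), nor did DDIT3, which codes for CHOP (log2 fold change 0.11, SE 0.105, edgeR adjusted p 0.745), TRIB3 (log2 fold change 0.21, SE 0.0641, edgeR adjusted p 0.109) or the cystine transporter SLC7A11 (log2 fold change 0.16, SE 0.0859, edgeR adjusted p 0.447). ATF4 output is set largely by translation, which these libraries do not measure. The separate list of the unfolded protein response of the endoplasmic reticulum had 0 of 26 called by edgeR (7 at an unadjusted p under 0.05, and 1 called by DESeq2) and a median of -0.12, with 21 of 26 below 0. Leaving out replicate 1, 2 or 3 left 3, 12 and 11 stress response genes higher. PSAT1 (0.0589 without replicate 1), DDIT4 (0.191 without replicate 1), PHGDH (0.232 without replicate 1 and 0.12 without replicate 3), AARS1 (0.282 without replicate 1 and 0.13 without replicate 3), ALDH1L2 (0.181 without replicate 1 and 0.129 without replicate 3), CEBPB (0.324 without replicate 1 and 0.0815 without replicate 2) and PSPH (0.496 without replicate 1 and 0.193 without replicate 2) were among those that then missed the threshold (edgeR adjusted p in each case), and SLC6A9 passed in none of the 3 (0.18 without replicate 1, 0.131 without replicate 2 and 0.298 without replicate 3).

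Promoters of the called stress response genes were searched for the C/EBP-ATF response element, TGATGNAAN, on both strands of the 250 bases before each RefSeq start (build GRCh38.p14). RefSeq starts were at hand for 13 of the 16 genes. Of the 20 promoters of those 13 genes (some have several starts), 4 held a match, in ASNS, JDP2, AARS1 and GARS1, where 3.13% of all 35116 promoters held it. A match describes letters, not binding. ASNS and AARS1 are shown as the strongest riser and a tRNA synthetase, at chr7:97872409-97872658 and chr16:70289507-70289756, both on the minus strand of the chromosome, with the match in capitals. In AARS1 the match is on the opposite strand, so its reverse complement reads the motif. The matches begin 68 and 188 bases before the start.

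ASNS: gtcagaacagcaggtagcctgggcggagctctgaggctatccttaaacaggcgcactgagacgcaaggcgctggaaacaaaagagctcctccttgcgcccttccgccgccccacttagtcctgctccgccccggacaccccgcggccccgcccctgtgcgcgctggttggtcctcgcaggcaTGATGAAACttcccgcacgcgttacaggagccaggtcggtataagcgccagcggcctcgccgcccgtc

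AARS1: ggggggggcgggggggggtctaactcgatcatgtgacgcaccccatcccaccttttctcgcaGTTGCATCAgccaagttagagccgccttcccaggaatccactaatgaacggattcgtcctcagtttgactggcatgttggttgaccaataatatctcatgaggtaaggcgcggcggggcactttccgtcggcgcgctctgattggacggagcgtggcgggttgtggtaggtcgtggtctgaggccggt

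The NF-kB list holds 31 tested genes of inflammatory signalling, most of them induced when NF-kB dimers enter the nucleus. In all, 11 rose (35.5%, beside 1.47% of all genes tested), 0 fell, 29 were above 0 and the median at 1 CPM or more was 0.42. The other 20 tested members were not called. TRAF1 and BIRC3 are described above. NFKBIE, an inhibitor of NF-kB, rose by 0.66 (edgeR adjusted p 0.00615; 0.13 without replicate 1). TNFAIP3, which codes for the deubiquitinase A20, had 345, 312 and 108 CPM in shADAR1 and 242, 255 and 83.4 CPM in shNT (log2 fold change 0.39, SE 0.0815, edgeR adjusted p 0.0121) and passed in none of the fits that left out a pair (0.271 without replicate 1, 0.0524 without replicate 2 and 0.0799 without replicate 3). NFKB2, the precursor of p52, rose by 0.28 (0.0422; 0.493 without replicate 1 and 0.164 without replicate 3).

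TNF, the ligand of tumour necrosis factor receptors, stood at 5.01, 3.25 and 2.52 CPM in shADAR1 and 0.352, 1.29 and 0.463 CPM in shNT, with arms apart (log2 fold change 2.37, SE 0.491, edgeR adjusted p 0.0132). CXCL2, a neutrophil chemokine, had 30.4, 17.3 and 14.6 CPM in shADAR1 and 16.5, 10.7 and 9.31 CPM in shNT (log2 fold change 0.74, SE 0.119, edgeR adjusted p 0.00153), and its neighbour CXCL1 rose by 0.34 (edgeR adjusted p 0.0117). IL1A rose by 0.58 (0.0215, but DESeq2 adjusted p 0.572 in the same design), IL11 by 0.73 (0.00651) and the adhesion molecule ICAM1 by 0.53 (0.0129). In all 11 genes replicate 3 was the lowest of the shADAR1 libraries, and the arms of 8 of the 11 overlapped. Without replicate 1, 2 or 3 the count of the list was 2, 9 and 5. Among the calls missed then were those of CXCL2 (0.0834 without replicate 1), TNF (0.274 without replicate 1 and 0.15 without replicate 3), CXCL1 (0.18 without replicate 1 and 0.0986 without replicate 3), IL11 (0.144 without replicate 1 and 0.0853 without replicate 3) and ICAM1 (0.224 without replicate 1 and 0.131 without replicate 3), each an edgeR adjusted p. IL1A (0.346 without replicate 1, 0.0761 without replicate 2 and 0.0904 without replicate 3) passed in none of the 3 fits.

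Promoters of the called NF-kB genes were searched for GGNNTTTCC, a core of the kB site chosen after the values were seen. RefSeq starts were at hand for 10 of the 11 genes; 7 of their 15 promoters held a match (BIRC3, CXCL1, CXCL2, TNFAIP3, ICAM1 and 2 starts of NFKB2), against 5.48% of all promoters. BIRC3, the largest rise of those with a match, and CXCL1, with 2 matches, are shown at chr11:102317234-102317483 and chr4:73869143-73869392, both on the plus strand. Matches are in capitals, that of BIRC3 on the opposite strand. They begin 199 bases before the start in BIRC3 and 78 and 53 in CXCL1.

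BIRC3: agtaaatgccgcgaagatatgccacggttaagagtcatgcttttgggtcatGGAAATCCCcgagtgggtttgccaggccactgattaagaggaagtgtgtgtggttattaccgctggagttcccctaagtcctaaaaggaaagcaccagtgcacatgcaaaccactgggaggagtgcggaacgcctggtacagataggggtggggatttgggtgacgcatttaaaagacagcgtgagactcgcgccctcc

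CXCL1: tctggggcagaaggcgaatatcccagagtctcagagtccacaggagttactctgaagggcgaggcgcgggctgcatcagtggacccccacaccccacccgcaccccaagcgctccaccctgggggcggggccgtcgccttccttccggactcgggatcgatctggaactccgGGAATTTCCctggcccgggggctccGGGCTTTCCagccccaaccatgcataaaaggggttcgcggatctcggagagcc

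Immediate early genes, which growth factors and stress switch on within minutes, formed another list. Of 37 tested, 9 rose (FOSL2, JUNB, JUND, EGR1, IER2, KLF2, KLF4, KLF6 and KLF10) and 0 fell, with a median of 0.10 and 13 below 0. The 9 are 24.3% of the list, where 1.47% of all genes tested were called higher. JUNB, an AP-1 subunit, had 333, 221 and 241 CPM in shADAR1 and 250.3, 167 and 147 CPM in shNT (log2 fold change 0.51, SE 0.0675, edgeR adjusted p 0.000196). KLF6 had 564, 260.4 and 203 CPM in shADAR1 and 421, 198 and 149 CPM in shNT, a 0.42 rise (SE 0.051, edgeR adjusted p 8.89e-05) that was small beside the spread of replicates within an arm. EGR1 rose by 0.67 (0.00894; 0.133 without replicate 2 and 0.0904 without replicate 3 by the same test). Counts without replicate 1, 2 or 3 were 4, 7 and 3.

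Of 46 interferon-stimulated genes tested 1 was called (2.17%, beside 2.1% of all genes tested). This was IRF1, which NF-kB as well as interferon induces: it had 52.5, 31.4 and 30.7 CPM in shADAR1 and 34.9, 22.6 and 19.4 CPM in shNT (log2 fold change 0.58, SE 0.0686, edgeR adjusted p 7.03e-05). The list had a median of 0.04, with 10 members at an unadjusted p under 0.05 and 2 called by DESeq2. None of 23 sensors and adaptors of double-stranded RNA was called by edgeR (1 at an unadjusted p under 0.05, 1 called by DESeq2; median 0.00), among them the genes for PKR, MDA5 and the OAS enzymes, and none of 17 genes of MHC class I presentation (median 0.00). Among 20 double-stranded RNA binding and editing genes ADAR alone was called.

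**Figure D4:**
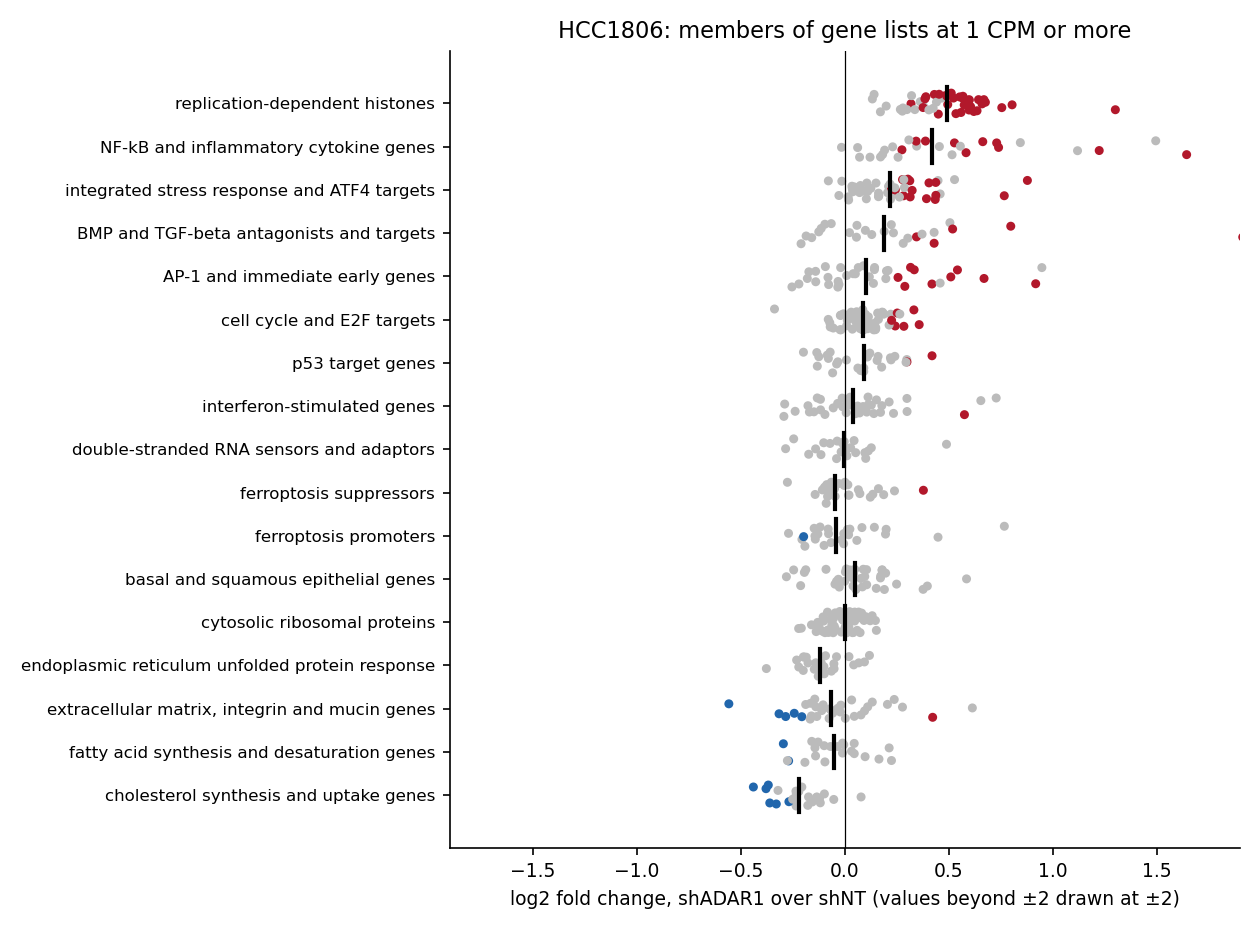
Log2 fold change in HCC1806 (horizontal axis) of each member at 1 CPM or more of 17 gene lists. Red and blue points are called higher and lower, and grey points are not called. The axis ends just short of 2 on either side, so values beyond 2, such as TNF at 2.37, are not shown. The black bar is the list's median, which is 0.49 for replication-dependent histones and -0.22 for cholesterol genes.

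Replication-dependent histones were the list with the most called members. These intronless genes are expressed in S phase, and their transcripts mostly lack a poly(A) tail, so they are seen in libraries made by ribosomal RNA depletion. Of 51 tested, 34 rose (66.7%, beside 1.47% of all genes tested) and 0 fell. All 51 were above 0, 50 were higher in each pair, and the median was 0.49. Their summed level was 8039, 4821 and 4922 CPM in shADAR1 and 5671, 3640 and 3533 CPM in shNT. Replicate 1 was high in both arms, so the arms of 31 of the 34 overlapped, and none was called without pairing.

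H4C6 (ENSG00000274618, chromosome 6, 26240426 to 26240737, plus strand), an H4 gene of the large cluster on chromosome 6, had 197, 110.3 and 114 CPM in shADAR1 and 113, 71.4 and 57.7 CPM in shNT (log2 fold change 0.81, SE 0.0885, edgeR adjusted p 2.82e-05). H2AC8 had 242, 141 and 139.9 CPM in shADAR1 and 146, 95.5 and 85 CPM in shNT (log2 fold change 0.67, SE 0.0847, edgeR adjusted p 0.000141), and H4C3 rose by 0.68 (edgeR adjusted p 0.00104). All 5 linker histone genes of the list rose, H1-2 by 0.43 (0.00136), H1-4 by 0.45 (0.00125) and H1-5 by 0.32 (0.00768; 0.143 without replicate 1 and 0.0649 without replicate 2) among them. Histone genes are near-identical copies whose reads the counting may have split, so single members are uncertain. Without replicate 1, 2 or 3 the count was 9, 24 and 15.

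Of 61 cell cycle genes tested 6 rose (CDK6, CDC25B, E2F1, E2F7, E2F8 and RBL1) and 0 fell, the median was 0.09 and 51 were above 0. The 6 are 9.84% of the list, beside 2.1% of all genes tested. CDK6, a G1 kinase, rose by 0.28 (edgeR adjusted p 0.00395; 0.116 without replicate 1), the pocket protein gene RBL1 by 0.36 (0.00754; 0.112 without replicate 1 and 0.104 without replicate 3) and E2F1 by 0.25 (0.048; 0.397 without replicate 1 and 0.309 without replicate 3). Without replicate 1 none of the 6 passed. Of 5 hosts of small nucleolar RNAs tested 4 rose, with SNHG32 at 115, 88.7 and 106 CPM in shADAR1 and 68.5, 66.2 and 66.3 CPM in shNT and arms apart (log2 fold change 0.62, SE 0.0765, edgeR adjusted p 0.000109); without replicate 1, 2 and 3 the count was 1, 2 and 1. TAF1D, another host, rose by 0.31 (edgeR adjusted p 0.00712; 0.132 without replicate 1 and 0.0799 without replicate 3). Only 5 of the 17 names on that list matched a gene here. Its 4 rises are 80% of those 5, beside 1.47% of all genes tested. None of 78 cytosolic ribosomal protein genes was called (median 0.00).

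The transcription factor SREBP2 drives genes of cholesterol synthesis and uptake when sterols are low. Of 25 tested, 6 fell (DHCR7, MSMO1 and MVD among them) and 0 rose, 24 were below 0, 22 were lower in each pair, and the median was -0.22. The 6 are 24% of the list, where 0.632% of all genes tested were called lower. The summed level of the list was lower by 0.24 to 0.25 on the log2 scale in every pair, being 2226, 2742 and 2126 CPM in shADAR1 and 2637, 3253 and 2522 CPM in shNT. DHCR7, which makes cholesterol in the last step of the pathway, had 150.2, 176 and 152 CPM in shADAR1 and 199, 218 and 196 CPM in shNT with arms apart (log2 fold change -0.36, SE 0.0688, edgeR adjusted p 0.00654; 0.132 without replicate 1 and 0.0848 without replicate 3). MSMO1 fell by 0.44 (edgeR adjusted p 0.0355) and MVD by 0.33 (0.0341), and both passed in none of the fits that left out a pair: MSMO1 gave 0.194 without replicate 1, 0.172 without replicate 2 and 0.272 without replicate 3, and MVD 0.346 without replicate 1, 0.101 without replicate 2 and 0.201 without replicate 3. The counts without replicate 1, 2 and 3 were 1, 2 and 0. RefSeq starts were at hand for 3 of the 6, and TCACNCCAC, a sterol response element chosen after the values were seen, was in none of their 4 promoters (0.883% of all promoters).

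Among 25 genes of fatty acid synthesis tested 2 fell (8%, beside 2.1% of all genes tested). FASN, fatty acid synthase, had 1046, 1108 and 1121 CPM in shADAR1 and 1317, 1304 and 1397 CPM in shNT (log2 fold change -0.29, SE 0.0529, edgeR adjusted p 0.00383; 0.0966 without replicate 1 and 0.0779 without replicate 3) and ACLY, which supplies its acetyl-CoA, had 258, 277 and 259 CPM in shADAR1 and 321, 323 and 312 CPM in shNT (log2 fold change -0.27, SE 0.0556, edgeR adjusted p 0.0108; 0.18 without replicate 1 and 0.125 without replicate 3), both with arms apart. Neither passed without replicate 1 or 3, the other 23 genes tested on that list were not called, and its median was -0.05.

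Of 29 ferroptosis suppressors MBOAT1, a phospholipid acyltransferase, alone rose (log2 fold change 0.38, SE 0.0855, edgeR adjusted p 0.02; 0.232 without replicate 1, 0.0608 without replicate 2 and 0.118 without replicate 3), and of 28 promoters of ferroptosis TFRC, the transferrin receptor, alone fell (log2 fold change -0.20, SE 0.0507, edgeR adjusted p 0.0439; 0.435 without replicate 1, 0.0684 without replicate 2 and 0.302 without replicate 3). These are 3.45% and 3.57% of the lists, beside 2.1% of all genes, and the medians were -0.05 and -0.04. Of 56 genes of lipid droplets, phospholipid remodelling and fatty acid oxidation, G0S2, an inhibitor of triglyceride lipase, rose (log2 fold change 0.42, SE 0.0934, edgeR adjusted p 0.0218; 0.306 without replicate 1, 0.0695 without replicate 2 and 0.0983 without replicate 3) beside MBOAT1 (3.57% of the list), and 37 were below 0 with a median of -0.05. None of 29 NRF2 targets was called (median 0.00).

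Of 29 p53 targets 2 rose, BBC3, which codes for PUMA (log2 fold change 0.42, SE 0.108, edgeR adjusted p 0.0435; 0.441 without replicate 1, 0.0793 without replicate 2 and 0.17 without replicate 3), and GADD45A (log2 fold change 0.30, SE 0.0716, edgeR adjusted p 0.0276; 0.487 without replicate 1 and 0.119 without replicate 2), and the median was 0.09. The 2 are 6.9% of that list, beside 2.1% of all genes tested. BBC3 was also the only member called of 16 BCL2 family genes (6.25%). CDKN1A, the p21 gene, did not pass, with 221, 272 and 129 CPM in shADAR1 and 194, 261 and 119 CPM in shNT (log2 fold change 0.12, SE 0.0846, edgeR adjusted p 0.613), nor did TP63 (log2 fold change 0.20, SE 0.0863, edgeR adjusted p 0.319).

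Among 26 genes of BMP and TGF-beta signalling 5 rose (RGMA, BMP2, ID4, TGFB2 and INHBA) and 0 fell, with a median of 0.19 (0.10 without replicate 1). The 5 are 19.2% of the list, where 1.47% of all genes tested were called higher. The count was 3, 5 and 2 without replicate 1, 2 and 3. INHBA, the activin A subunit, had 122, 116 and 41.3 CPM in shADAR1 and 80.2, 87.7 and 28.1 CPM in shNT, lowest in replicate 3 of both arms (log2 fold change 0.52, SE 0.0802, edgeR adjusted p 0.00106). BMP2 rose by 0.80 (edgeR adjusted p 0.0233; 0.413 without replicate 1 and 0.101 without replicate 3) and ID4, a BMP target, by 0.43 (0.00395; 0.101 without replicate 3).

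Of 35 matrix genes tested 5 fell (COL4A1, COL4A2, COL5A2, ITGB5 and HSPG2), TNC rose, and the median was -0.06. The 6 calls are 17.1% of the list, beside 2.1% of all genes tested. Without replicate 1, 2 or 3 the count of falls was 1 each time and that of rises 0. HSPG2 had 102, 88.5 and 148 CPM in shADAR1 and 174, 119.8 and 205 CPM in shNT (log2 fold change -0.56, SE 0.0803, edgeR adjusted p 0.00049) and COL5A2 83.2, 77.8 and 40.2 CPM in shADAR1 and 114, 93.2 and 47.4 CPM in shNT (log2 fold change -0.32, SE 0.0674, edgeR adjusted p 0.0136; 0.279 without replicate 1, 0.0534 without replicate 2 and 0.0692 without replicate 3). Of 28 genes of epithelial and mesenchymal state 3 rose, all of the mesenchymal kind: SNAI2, the repressor Slug, with 91.5, 75.1 and 70.1 CPM in shADAR1 and 54.5, 57.7 and 40.1 CPM in shNT and arms apart (log2 fold change 0.64, SE 0.0805, edgeR adjusted p 0.000181), VIM, with 13.1, 19.7 and 3.47 CPM in shADAR1 and 7.43, 14.8 and 1.68 CPM in shNT (log2 fold change 0.68, SE 0.0925, edgeR adjusted p 0.000254), and AXL, a receptor kinase (log2 fold change 0.31, SE 0.0626, edgeR adjusted p 0.0103; 0.132 without replicate 1, 0.0616 without replicate 2 and 0.0639 without replicate 3). VIM in replicate 3 was below the other replicates in both arms. The 3 rises are 10.7% of the epithelial and mesenchymal list, beside 2.1% of all genes tested. The other 25 genes tested on it were not called, 11 of the 28 were below 0, and its median was 0.04. None of 41 basal and squamous genes (median 0.05) and none of 21 luminal genes (median -0.01) was called.

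Among 42 genes of glycolysis and the hypoxia response VEGFA rose, with 276, 259.9 and 255 CPM in shADAR1 and 203, 204 and 195 CPM in shNT and arms apart (log2 fold change 0.39, SE 0.0567, edgeR adjusted p 0.00049), and PGK1 and P4HA2 fell, PGK1 standing at 262, 322 and 289.6 CPM in shADAR1 and 365, 403 and 379 CPM in shNT with arms apart (log2 fold change -0.40, SE 0.0595, edgeR adjusted p 0.000797). In each fit that left out a pair PGK1 was the only fall of the list. The 3 called genes are 7.14% of the list, beside 2.1% of all genes tested. The list had a median of -0.06, with 30 of 42 below 0. TXNIP, an arrestin-like gene that MLX complexes drive, rose by 0.51 (edgeR adjusted p 0.00428; 0.117 without replicate 1 and 0.0837 without replicate 3) while MLX fell; no other of 15 genes of the MLX and MYC network was called. NEAT1, the RNA scaffold of paraspeckles, had 1173, 1118 and 1179 CPM in shADAR1 and 1572, 1478 and 1405 CPM in shNT with arms apart (log2 fold change -0.36, SE 0.0586, edgeR adjusted p 0.00162; 0.0635 without replicate 1) and was the only call among 11 nuclear RNAs and paraspeckle proteins.

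SDHA was the only call among 76 nuclear-encoded respiratory chain genes (1.32%, beside 2.1% of all genes tested). It was lower in shADAR1 (log2 fold change -0.25, SE 0.0539, edgeR adjusted p 0.0165; 0.205 without replicate 1, 0.0577 without replicate 2 and 0.223 without replicate 3). Of 13 mitochondrial genome genes and 11 genes of mitochondrial tRNA processing none was called. Of 16 genes of RNA interference TNRC6C, a GW182 protein, alone rose (log2 fold change 0.42, SE 0.0995, edgeR adjusted p 0.025; 0.18 without replicate 1 and 0.326 without replicate 3), and of 15 genes of lysine-63 ubiquitin signalling UBE2N alone fell. These single calls are 6.25% and 6.67% of their lists. None of 11 structural RNA genes was called. In all, 26 of the 37 lists had a called member. The other 11 lists hold 284 tested genes, of which 43 had an unadjusted p under 0.05 and 9 were called by DESeq2.

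The change in HCC1806 differed from the mean change of the other 3 lines in 347 genes (1.63% of those tested; edgeR's quasi-likelihood test on the difference, Benjamini-Hochberg adjustment), and 109 of the 448 called genes were among them. The controls of the lines are separate libraries. Among the genes that differed most by test were DHRS2 (2.92 here and 0.12 to 0.72 elsewhere; difference 2.43, SE 0.246, edgeR adjusted p 2.56e-05) and TRAF1 (1.64 here and -0.10 to 0.11 elsewhere; 1.61, SE 0.164, 2.56e-05). ASNS rose by 0.88 here and had -0.01 to 0.21 elsewhere (difference 0.78, SE 0.111, edgeR adjusted p 0.000814). FASN fell here and had 0.05 to 0.10 elsewhere (difference -0.37, SE 0.061, edgeR adjusted p 0.0028).

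By list, the difference from the other lines was called for 3 of 12 genes of the MDM2 and p53 family, 10 of 51 histone genes, 5 of 26 BMP and TGF-beta genes, 9 of 50 stress response genes, 5 of 31 NF-kB genes and 4 of 25 cholesterol genes, beside 1.63% of all genes. It was also called for 5 of 35 matrix genes, 5 of 42 genes of glycolysis and hypoxia, 3 of 28 genes of epithelial and mesenchymal state and 3 of 61 cell cycle genes, and for at most 2 genes in each other list. Some falls were smaller here than elsewhere: UBE2N fell by 0.72, against 1.14 to 1.63 in the other lines (difference 0.67, SE 0.11, edgeR adjusted p 0.00314). PEG10 fell by 0.57 here (difference 0.79, SE 0.0832, edgeR adjusted p 2.6e-05).

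Called genes were then counted in the other lines. Of the 135 falls, 77 (57%, and 13.6% of that line's 568) were also called lower in BT549, 84 (62.2%, and 6.23% of 1349) in MDAMB231 and 53 (39.3%, and 38.1% of 139) in MDAMB468. Of the 313 rises, 46 (14.7%, and 8.68% of 530), 56 (17.9%, and 5.16% of 1085) and 35 (11.2%, and 16.3% of 215) were called higher in BT549, MDAMB231 and MDAMB468. In none of the other 3 lines were 251 of the 448 genes called in either direction, and for 73 of these 251 the test of the difference passed. The shares of rises and falls were not tested against each other.

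**Figure D5:**
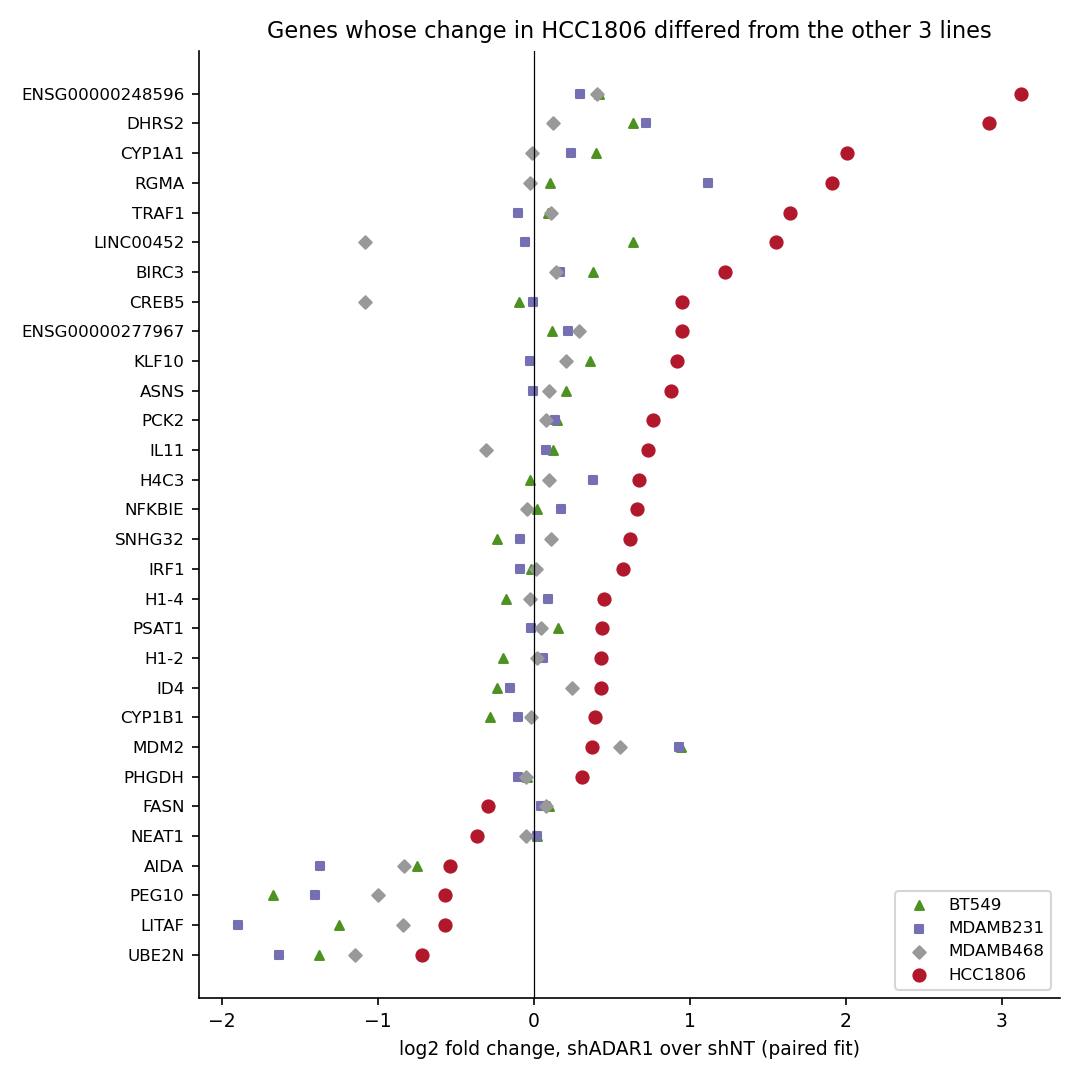
Log2 fold change (horizontal axis, paired fit) of 30 named genes whose change in HCC1806 differed from the mean of the other 3 lines, with 1 marker per cell line. HCC1806 lies to the right of each other line in 27 genes and to the left of each in MDM2, FASN and NEAT1; among the 27, UBE2N, LITAF, PEG10 and AIDA were below 0 in all 4 lines and least so in HCC1806.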

How the data were processed

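RNA from 24 libraries (4 lines, 2 arms, 3 replicates each) had been sequenced, and each library came with 1 table of 37416 genes. The deposited counts are whole reads per gene, which the authors made with bcl2fastq, STAR and featureCounts from Subread, per the submitters' processing notes, which also name edgeR; genome build and strand setting are not given in the sources used here. Per the file headers, the authors also gave CPM and RPKM, which were not used for tests. Coordinates are those in the deposited tables; 31357 genes have the same start and end in GENCODE 29, which is built on GRCh38. Symbols were found for 33972 genes.

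The deposited counts of all 24 libraries were fitted with edgeR 4.0.16 (R 4.3.3): 21352 genes passed filterByExpr over the 8 groups, scaling was TMM, and the model held a term for each line and replicate number plus a knockdown coefficient per line, tested by quasi-likelihood (2-sided, Benjamini-Hochberg over all genes, threshold 0.05). A second contrast set HCC1806 against the mean of the other 3 lines. Standard errors are the fold change over the square root of F. The term for pairs was in the model because the comparison was defined as paired by replicate number. Same-numbered libraries deviated together (correlations 0.642, 0.731 and 0.810 over 13887 genes). No libraries of an arm agreed within sampling noise. Named genes were ADAR, MDM2, the 14 largest called rises and 14 largest called falls at 5 CPM or more with the same direction in each pair, the 2 called genes with the lowest p in each list, and the 3 that differed most by test from the other lines; others were chosen after their values were seen. Some genes that this rule gives are not reported here. List medians cover members at 1 CPM or more. Ratios of a pair used a pseudocount of 0.1 CPM. The gene lists, the paired fit and the named members were chosen with earlier results of these data known, including the counts of 448 and 10 called genes with and without pairs. The fit was tested on simulated counts. Alternatives were other scalings and filters, DESeq2 1.42.0, the 6 libraries alone, no pairs, and each replicate left out.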

Additional observations from a re-analysis of the deposited data

Results flagged for a closer look

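For 30 of the genes described singly, the change in HCC1806 differed by test from the mean change of the other 3 lines; values are the difference in log2 fold change, positive where HCC1806 was above. ENSG00000248596 differed by 2.75 (3.12 in HCC1806 and 0.30 to 0.42 elsewhere) and DHRS2 differed by 2.43 (2.92 in HCC1806 and 0.12 to 0.72 elsewhere). CYP1A1 differed by 1.80 (2.01 in HCC1806 and -0.01 to 0.40 elsewhere) and RGMA differed by 1.51 (1.91 in HCC1806 and -0.02 to 1.12 elsewhere). LINC00452 differed by 1.72 (1.56 in HCC1806 and -1.08 to 0.64 elsewhere) and TRAF1 differed by 1.61 (1.64 in HCC1806 and -0.10 to 0.11 elsewhere). CREB5 differed by 1.35 (0.95 in HCC1806 and -1.08 to -0.0019 elsewhere) and BIRC3 differed by 0.99 (1.22 in HCC1806 and 0.14 to 0.38 elsewhere). ENSG00000277967 differed by 0.74 (0.95 in HCC1806 and 0.12 to 0.29 elsewhere) and KLF10 differed by 0.74 (0.92 in HCC1806 and -0.02 to 0.36 elsewhere). The edgeR adjusted p of these differences ran from 2.56e-05 to 0.032.

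Beyond TRAF1 and BIRC3, 7 inflammatory and stress response genes described singly differed in this way. ASNS differed by 0.78 (0.88 in HCC1806 and -0.01 to 0.21 elsewhere) and PCK2 differed by 0.65 (0.77 in HCC1806 and 0.08 to 0.15 elsewhere). PSAT1 differed by 0.37 (0.44 in HCC1806 and -0.02 to 0.16 elsewhere) and PHGDH differed by 0.38 (0.31 in HCC1806 and -0.10 to -0.04 elsewhere). IL11 differed by 0.76 (0.73 in HCC1806 and -0.30 to 0.12 elsewhere) and NFKBIE differed by 0.61 (0.66 in HCC1806 and -0.04 to 0.18 elsewhere). IRF1 differed by 0.61 (0.58 in HCC1806 and -0.09 to 0.02 elsewhere). The edgeR adjusted p of these differences ran from 0.000287 to 0.0343.

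Histone genes, a small nucleolar RNA host and 2 further genes that rose in HCC1806 followed. H1-2 differed by 0.47 (0.43 in HCC1806 and -0.19 to 0.06 elsewhere) and H1-4 differed by 0.49 (0.45 in HCC1806 and -0.18 to 0.09 elsewhere). H4C3 differed by 0.53 (0.68 in HCC1806 and -0.02 to 0.38 elsewhere) and SNHG32 differed by 0.69 (0.62 in HCC1806 and -0.23 to 0.11 elsewhere). ID4 differed by 0.48 (0.43 in HCC1806 and -0.23 to 0.24 elsewhere) and CYP1B1 differed by 0.53 (0.39 in HCC1806 and -0.28 to -0.02 elsewhere). The edgeR adjusted p of these differences ran from 0.000287 to 0.0279.

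In 4 genes, lower in shADAR1 in every line, the difference was smaller in HCC1806. UBE2N differed by 0.67 (-0.72 in HCC1806 and -1.63 to -1.14 elsewhere) and LITAF differed by 0.76 (-0.57 in HCC1806 and -1.89 to -0.84 elsewhere). PEG10 differed by 0.79 (-0.57 in HCC1806 and -1.67 to -0.998 elsewhere) and AIDA differed by 0.45 (-0.53 in HCC1806 and -1.37 to -0.74 elsewhere). The edgeR adjusted p of these differences ran from 2.6e-05 to 0.0358.

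In another 3 genes HCC1806 was below each other line. MDM2 differed by -0.43 (0.38 in HCC1806 and 0.55 to 0.94 elsewhere) and FASN differed by -0.37 (-0.29 in HCC1806 and 0.05 to 0.10 elsewhere). NEAT1 differed by -0.36 (-0.36 in HCC1806 and -0.05 to 0.02 elsewhere). The edgeR adjusted p of these differences ran from 0.0028 to 0.0263.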

How the results depend on the processing

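The count of 448 changed genes rested on the pairing: with no replicate block it was 10, in the 6 HCC1806 libraries alone it was 1150 with the replicate block and 0 without it (edgeR; 426 at an unadjusted p under 0.05), and leaving out a replicate gave 74 to 238 within pairs and 4 to 15 without the block. DESeq2 gave 726 (419 of the 448 among them) and no filter on low counts 774 (439 among them), while RLE scaling gave 458 and upper-quartile scaling 471. The count that differed from the other lines was 3 with no replicate block (ANTXR1, ENSG00000248596 and DHRS2), 722 with DESeq2, 761 with no filter, 65 to 165 with a replicate left out and 1 to 7 with a library left out and no block; the cause was not tested.

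Of 91 genes described singly, 15 kept their side of the threshold with no replicate block and 76 did not; 91 kept it under RLE scaling, 91 under upper-quartile scaling and 85 under DESeq2. The other 6 under DESeq2 were IL1A (DESeq2 adjusted p 0.572), MSMO1 (0.0841), LITAF (0.0516), and TNF, TNFRSF9 and DNAH3, to which DESeq2 gave no adjusted p. Without replicate 1, 2 and 3 within pairs, 42, 71 and 54 of the 91 kept their side. Directions turned only with a library or pair left out. ATF4 turned to -0.0088 without replicate 1 within pairs. With no block and 1 library left out, ATF4 ran from -0.075 to 0.174, CDKN1A from -0.134 to 0.409, DDIT3 from -0.025 to 0.218, CXCL1 from -0.0299 to 0.708, KLF6 from -0.142 to 0.98 and NUP210 from -1.46 to 0.197. Of the medians of the lists and of all genes, 119 of those computed with a replicate or library left out moved by more than the spread between pairs, as did 10 under other settings. Without structural RNA and mitochondrial genes, those 2 lists have no median. Low counts limit genes under 1 CPM, of which 16 were called.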

Other observations

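Heat shock proteins and regulators of the heat shock response (HSF1, HSF2 and HSBP1) were put into a list after their values were seen. Of 24 tested, 6 fell (HSPE1, HSP90AB1, DNAJB1, BAG3, SERPINH1 and HSBP1), 0 rose and 24 were below 0, with a median log2 fold change of -0.16. Over all genes tested 0.632% were called lower. HSP90AB1, a constitutive HSP90, was at 2816 ± 353 CPM in shADAR1 and 3326 ± 134 CPM in shNT (mean ± SD, n = 3; log2 fold change -0.25, SE 0.0504, edgeR adjusted p 0.0101). DNAJB1, an HSP40 co-chaperone, was at 709 ± 362 CPM and 889.9 ± 386 CPM (-0.35, SE 0.0886, edgeR adjusted p 0.0376), with a spread between replicates wider than the change. HSPA1A, the inducible HSP70, did not pass (-0.45, SE 0.179, edgeR adjusted p 0.255). Of the 6, HSPE1 alone also differed from the other lines (edgeR adjusted p 0.0325).

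Histone genes outside the replication-dependent list, also grouped after their values were seen, rose in 7 of 13 (H1-10, H2AX, H2AJ, H2AC21, H2AC25 and H2BC26 among them). Over all genes tested 1.47% were called higher. H2AC21, H2AC25 and H2BC26 share the H2AC and H2BC names of genes on the replication-dependent list. H1-10, a linker histone, was at 132 ± 35.4 CPM in shADAR1 and 87.5 ± 15.9 CPM in shNT (0.57, SE 0.0664, edgeR adjusted p 5.51e-05). The variants H2AZ1 (-0.04), H2AZ2 (0.06), H3-3A (-0.10), H3-3B (0.13), MACROH2A1 (-0.05) and MACROH2A2 (-0.02) were not called. Of 7 genes of the aryl hydrocarbon receptor pathway, chosen in the same way, CYP1A1 and CYP1B1 rose; AHR (0.08), AHRR (-0.09), TIPARP (0.17) and NQO1 (0.07) were not called.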
